A study of Mus musculus with 16 samples.

Results

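The 10 genes of the myostatin, activin and follistatin axis were read in gastrocnemius muscle of tumor-bearing and exercised mice. They were taken by symbol, and 10 of 10 were found among the 35415 genes of the expression tables. The genes are the ligands myostatin (Mstn), Gdf11, the activin subunit Inhba and Gdf10, the receptors Acvr2a, Acvr2b and Acvr1b, and the follistatin family genes Fst, Fstl3 and Fstl1. All 10 passed the filter on low counts, which left 14749 genes tested.

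The mice were wild-type male BALB/c animals, bought at an age of 8 weeks. Each group had 12 mice, of which 4 chosen at random were sequenced. The control group (C) and the exercise group (E) received saline. The tumor group (T) and the tumor plus exercise group (TE) received CT26 colon carcinoma cells under the skin of the left hind limb. The saline was given at the same site. The study reported tumors in all T mice but not in all TE mice. Whether the muscle sequenced came from that limb was not given. E and TE mice ran on a treadmill at 14 m/min for 60 min a day on 6 days of the week over 4 weeks, and C and T mice stood on a treadmill that did not move. A single tumor line and a single muscle were used, and every library was made from whole muscle RNA, in which fewer cells of a type and less RNA per cell cannot be told apart. Library totals lay between 35628211 and 37635741 counts. Markers of muscle fibers were abundant in every library, at a summed 80519 to 97443 CPM (counts scaled to library size). Library TE4 carried lymphocyte and lymph node markers at 64.5 CPM, against at most 17.3 CPM elsewhere, and neutrophil markers were highest in T4, at 41.1 CPM. Where a call of the 10 genes changed without T4 or TE4, the value without that library is given.

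Myostatin is a growth factor of the transforming growth factor beta (TGF-beta) superfamily that muscle fibers secrete and that limits muscle mass. Myostatin, Gdf11 and activins bind the type II receptors Acvr2a and Acvr2b, which recruit a type I receptor such as Acvr1b, and the complex phosphorylates Smad2 and Smad3. Follistatin and the follistatin-like protein encoded by Fstl3 hold these ligands outside the cell and keep them from the receptors, and loss of myostatin or excess of follistatin enlarges skeletal muscle. Fstl1 carries a follistatin-like domain but is a distinct secreted glycoprotein of mesenchymal cells, and Gdf10, also called Bmp3b, is a ligand related to Bmp3.

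Mstn lies on the plus strand of chr1:53100799-53107240 and Fst on the minus strand of chr13:114588731-114595521 in the mouse build GRCm39. The 250 bases that precede their annotated starts are shown here because Fst was the gene whose level moved and Mstn the abundant ligand whose level did not pass any test. Each is written 5′ to 3′ on the gene's own strand, and capitals mark matches on either strand to CAGAC (the core of a Smad-binding CAGA box), TGACG (a cAMP response element half-site) or TATAAA (an element of some core promoters).
Mstn, chr1:53100549-53100798, plus strand: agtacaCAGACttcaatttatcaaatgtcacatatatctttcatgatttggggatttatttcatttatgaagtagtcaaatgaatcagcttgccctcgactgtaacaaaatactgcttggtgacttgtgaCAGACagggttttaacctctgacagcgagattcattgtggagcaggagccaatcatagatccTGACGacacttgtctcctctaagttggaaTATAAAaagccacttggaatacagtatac
Fst, chr13:114595522-114595771, minus strand: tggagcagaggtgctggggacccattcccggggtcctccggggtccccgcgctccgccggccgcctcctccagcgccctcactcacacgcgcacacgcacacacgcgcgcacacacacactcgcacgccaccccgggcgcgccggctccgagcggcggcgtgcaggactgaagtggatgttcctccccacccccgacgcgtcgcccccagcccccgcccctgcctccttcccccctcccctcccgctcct
The Mstn window held 2 matches to CAGAC, 1 to TGACG and 1 to TATAAA, the last beginning 29 bases before the start. The Fst window held none of those letters and had 30 CpG dinucleotides, against 3 in Mstn. GC content was 38.4% in the Mstn window and 75.6% in the Fst window, where the median over the 21770 promoter windows of the build was 53.2%. Of those windows, 41.3% held CAGAC, 18.0% TGACG and 11.9% TATAAA. The E-box letters CANNTG, bound by muscle helix-loop-helix factors, matched at 4 places in the Mstn window, at none in the Fst window and in 64.8% of all windows. These are matches of letters and not mapped binding sites.

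The 10 genes covered a wide range of levels in FPKM (fragments per kilobase of transcript, scaled to sequencing depth), a unit that allows genes to be compared per length. Mean FPKM over the 16 libraries was 43.6 for Mstn, 20.7 for Fstl1, 16.03 for Acvr1b, 9.87 for Acvr2a, 2.74 for Acvr2b, 2.18 for Gdf11, 1.62 for Fst, 1.52 for Fstl3, 0.769 for Gdf10 and 0.148 for Inhba. Mstn exceeded Fstl1 in 16 of 16 libraries, Acvr1b exceeded Acvr2a in 16 and Acvr2a exceeded Acvr2b in 16. Gdf10 exceeded Inhba in 16 and Fstl3 exceeded Gdf10 in 15. The remaining neighbours changed places in more libraries: Fstl1 exceeded Acvr1b in 10 libraries, Acvr2b exceeded Gdf11 in 12, Gdf11 exceeded Fst in 13, and Fst exceeded Fstl3 in 7. Among the tested genes, 93.2% had a lower mean FPKM than Mstn and 9.38% a lower one than Inhba, whose libraries held between 26 and 126 counts.

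**Figure D1:**
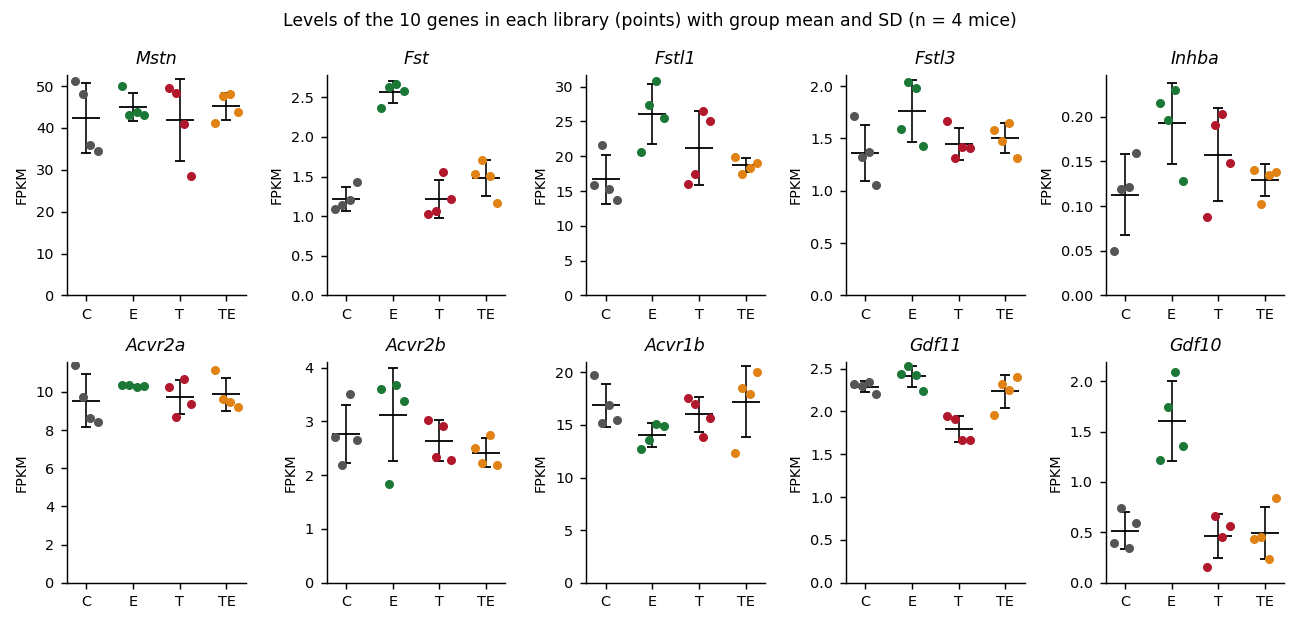
FPKM of the 10 genes in each of the 16 libraries (vertical axis), 1 panel per gene, with groups on the horizontal axis, libraries as points and the mean and SD of the 4 libraries of each group as lines and bars. In the Fst panel the E libraries sit between 2.36 and 2.67 and every other library lies at 1.71 or below.

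Exercise in mice without a tumor (E vs C) asks how treadmill training moved the axis in healthy muscle. Fst rose to 2.05 times its level in C, and no other gene of the axis passed the test. The 1 gene called of 10 stands against 0.0881% of all genes tested, which is 13 genes, in edgeR's quasi-likelihood test at an adjusted p under 0.05.

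Fst FPKM was 1.10, 1.15, 1.21 and 1.43 in the C libraries. The E libraries had 2.36, 2.64, 2.67 and 2.58. All 4 E libraries were above all 4 C libraries, and the lowest E value was above every library of the other groups as well. Group means were 1.22 ± 0.147 in C and 2.56 ± 0.138 in E (SD, n = 4 each). The log2 fold change was 1.04 (SE 0.149, 95% interval 0.72 to 1.35), with a Benjamini-Hochberg adjusted p of 0.0160 from edgeR's quasi-likelihood test, and Fst was 2nd of all tested genes in order of p. The size was stable when single libraries were left out, from 1.00 to 1.12 on the log2 scale. The adjusted p passed 0.05 without C1 (0.0920), C3 (0.0764), E2 (0.0593) or E4 (0.0529), and stayed under it when any of the other 12 libraries was left out. With a fold above 2 or below 0.5 required as well, Fst still passed in E vs C, as did 0.0475% of the tested genes.

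Gdf10 showed the largest fold difference of the axis in the same comparison, with more spread. Its FPKM was 0.398, 0.741, 0.346 and 0.590 in C. In E it was 1.22, 1.75, 2.095 and 1.36. The groups did not overlap, and the log2 difference was 1.59 (SE 0.374, 95% interval 0.80 to 2.38). The adjusted p of 0.101 in edgeR's quasi-likelihood test missed the threshold, while DESeq2 gave 0.00407 and limma-voom 0.0285.

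Fstl1 was at 15.9, 21.7, 15.3 and 13.8 FPKM in C. It was at 20.6, 27.3, 30.8 and 25.5 in E. E1 lay below C2, so the groups overlapped. On the log2 scale E exceeded C by 0.61 (SE 0.154), with an adjusted p of 0.131 in edgeR's quasi-likelihood test, 0.0132 in DESeq2 and 0.0404 in limma-voom. Inhba, which encodes the subunit of activin A, was at 0.0502, 0.120, 0.121 and 0.159 FPKM in C. It was at 0.216, 0.196, 0.230 and 0.128 in E, where E4 fell within the range of C. Its log2 fold change was 0.74 (SE 0.300) with an adjusted p of 0.288 in edgeR's quasi-likelihood test. Fstl3 had a log2 fold change of 0.33 (SE 0.181, adjusted p 0.433) on a mean FPKM of 1.36 ± 0.268 in C and 1.76 ± 0.299 in E, with all 4 groups overlapping.

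The ligands Mstn and Gdf11 showed little difference between E and C. Mstn was at 51.2, 48.0, 36.0 and 34.5 FPKM in C. In E it was at 49.9, 43.0, 43.8 and 43.0, all of them inside the range of C. Its log2 fold change was 0.04 with a 95% interval of -0.29 to 0.38. Gdf11, at 2.44, 2.53, 2.43 and 2.23 FPKM in E, differed from C by 0.03 on the log2 scale, with an interval of -0.15 to 0.22.

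The type I receptor Acvr1b was the gene of the axis with a lower level in E. It was at 19.8, 15.2, 16.9 and 15.5 FPKM in C. It was at 12.7, 13.6, 15.1 and 14.9 in E, below C without overlap by a narrow margin between E3 and C2. The log2 fold change was -0.30 (SE 0.135) with an adjusted p of 0.329 in edgeR's quasi-likelihood test. With single libraries left out it ranged from -0.36 without C2 to -0.20 without C1. The type II receptors showed smaller differences, of 0.07 for Acvr2a and 0.14 for Acvr2b on the log2 scale, with adjusted p of 0.791 and 0.780 in edgeR's quasi-likelihood test. With single libraries left out, Acvr2a ranged from 0.014 to 0.19. Acvr2b ranged from 0.035 without C2 to 0.32 without E2. Acvr2a lay between 10.3 and 10.4 FPKM in the 4 E libraries, with an SD of 0.466% of the mean, and between 8.41 and 11.4 in C. In the CPM values, which carry the scaling of the test, the E libraries lay between 55.7 and 58.2, with an SD of 2.01% of the mean. Acvr2b was at 3.61, 1.83, 3.68 and 3.39 FPKM in E, where E2 was the lowest of the 16 libraries, and between 2.19 and 3.51 in C. E2 also had the highest summed level of 5 tendon markers, 243 CPM against 146 to 163 in the other E libraries, and of 6 fibroblast markers, 987 CPM against 717 to 903. After group means were subtracted, Acvr2b correlated with the tendon sum at -0.75 and with the fibroblast sum at -0.54 over the 16 libraries, E2 included. Over the 12 libraries outside E, without that subtraction, the correlations were -0.52 and -0.52. The part of these markers in the low Acvr2b level was not tested.

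At an unadjusted p under 0.05, 5 of the 10 genes (Fst, Fstl1, Gdf10 and Inhba upward, Acvr1b downward) stood out in E vs C, where 14.2% of all tested genes did. Among tested genes 6.28% had all E libraries above all C libraries, as did Fst and Gdf10, and 2.39% had all E libraries below, as did Acvr1b. The median log2 fold change of the 10 genes was 0.23, and that of all tested genes was 0.0033.

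**Figure D2:**
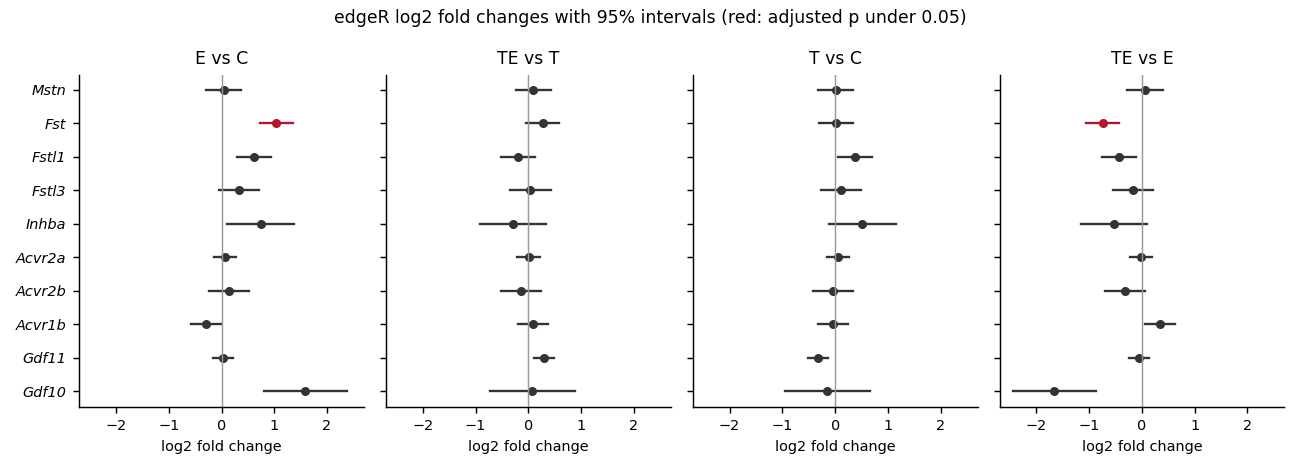
Log2 fold changes of the 10 genes from edgeR's fit in E vs C, TE vs T, T vs C and TE vs E (1 panel each, horizontal axis), with bars for the 95% interval and red where the adjusted p was under 0.05. Fst is red in E vs C at 1.04 and in TE vs E at -0.74, and the intervals of Mstn include 0 in each of the 4 comparisons.

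The tumor in exercised mice (TE vs E) asks whether a trained muscle differs when the animal also carries CT26 cells. Fst was lower in TE than in E and again the gene of the axis that was called, 1 of 10 against 0.231% of all tested genes, or 34 genes. E vs C and TE vs E share the E libraries, so a high E level enters both. Blood cell markers separated the groups as well: 5 erythroid markers summed to 238 to 348 CPM in E and 553 to 784 CPM in TE, with 5 of 5 called, and 4 neutrophil markers to 0.552 to 3.75 CPM in E and 9.72 to 16.2 CPM in TE, with 0 of 4 called. The sum of 4 endothelial markers also separated the groups, at 576 to 625 CPM in E and 427 to 551 CPM in TE, with 2 of 4 positive and 0 called. The part of the blood cell and endothelial markers in the Fst difference was not tested.

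Fst FPKM in TE was 1.54, 1.71, 1.503 and 1.17. Each of these lay below every E library and, apart from TE4, above every C library. The mean was 1.48 ± 0.227 (SD, n = 4). The log2 fold change of TE against E was -0.74 (SE 0.147, 95% interval -1.05 to -0.43), with an adjusted p of 0.0452 in edgeR's quasi-likelihood test. This call was close to its threshold. It was lost when any 1 library other than T1 or T3 was left out, at log2 fold changes between -0.82 and -0.63, and the adjusted p was 0.158 without TE4 and 0.0556 without T4. DESeq2 gave 0.000862 and limma-voom 0.0125, while edgeR's test with the replicate number as a block gave 0.0838. Its fold of 0.598 was not below the 0.5 that, required as well, 0.0746% of the tested genes passed in either direction.

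Gdf10 in TE was at 0.431, 0.458, 0.237 and 0.845 FPKM. The 4 libraries were all below the E libraries and spread on both sides of the range of C. The log2 fold change was -1.66 (SE 0.375, 95% interval -2.45 to -0.87) with an adjusted p of 0.0961 in edgeR's quasi-likelihood test. Without TE4, the library with the lymph node markers, it was -2.03 and the adjusted p was 0.0426. Fstl1 in TE was at 19.9, 17.5, 18.3 and 19.1 FPKM, below every E library, with a log2 fold change of -0.43 (SE 0.153, adjusted p 0.362). Fst, Gdf10 and Fstl1 were the genes of the axis with all TE libraries below all E libraries, which held for 5.56% of the tested genes.

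Acvr1b was at 12.3, 18.5, 17.9 and 20.05 FPKM in TE. TE1 was lower than every E library and the other TE libraries were higher than all of them. This gave a log2 fold change of 0.34 (SE 0.135, adjusted p 0.429). Mstn, at 41.3, 47.5, 48.1 and 43.8 FPKM in TE, differed from E by 0.06 on the log2 scale, with an interval of -0.27 to 0.39. At an unadjusted p under 0.05, 4 of the 10 genes stood out in TE vs E (Fst, Gdf10, Fstl1 and Acvr1b), against 9.23% of all tested genes.

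The tumor without exercise (T vs C) asks what the CT26 tumor did to the axis in sedentary mice. No gene of the axis was called, against 0.678% of all tested genes, or 100 genes. At an unadjusted p under 0.05, 2 of the 10 genes (Gdf11 downward and Fstl1 upward) stood out, against 14.2% of all tested genes. DESeq2 called 1 of them, Gdf11, and limma-voom called 0.

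Gdf11, a close relative of myostatin, was at 2.32, 2.30, 2.34 and 2.20 FPKM in C. It was at 1.94, 1.92, 1.67 and 1.66 in T. All T libraries were below all C libraries, as for 4.21% of the tested genes. The log2 fold change was -0.32 (SE 0.090, 95% interval -0.51 to -0.13), with an adjusted p of 0.108 in edgeR's quasi-likelihood test and 0.0458 in DESeq2. Without T4 it was -0.29. Blood cell markers also separated these groups: 4 neutrophil markers summed to 0.604 to 3.43 CPM in C and 7.21 to 41.1 CPM in T, with 4 of 4 called, and 5 erythroid markers to 223 to 326 CPM in C and 471 to 524 CPM in T, with 4 of 5 called. Their part in the Gdf11 difference was not tested.

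Mstn in T was at 49.7, 48.4, 41.0 and 28.4 FPKM. T4 was the lowest of the 16 libraries, and the other 3 lay within the range of C. The log2 fold change against C was 0.01 with a 95% interval of -0.33 to 0.34, and 0.15 without T4. Fst in T was at 1.03, 1.06, 1.55 and 1.22 FPKM, around the C values, with a log2 fold change of 0.02 and an interval of -0.30 to 0.34. Fstl1 in T was at 15.97, 17.4, 26.4 and 25.1 FPKM. T3 and T4 exceeded every C library and T1 and T2 did not, giving a log2 fold change of 0.37 (SE 0.154, adjusted p 0.275). The receptors differed between T and C by 0.05 for Acvr2a, -0.04 for Acvr2b and -0.05 for Acvr1b on the log2 scale.

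Exercise in tumor-bearing mice (TE vs T) asks whether training moved the axis when a tumor was present. No gene of the axis was called, and the share called among all tested genes was 0% (0 genes) in edgeR's quasi-likelihood test. At an unadjusted p under 0.05, Gdf11 alone of the 10 stood out, against 5.88% of all tested genes, and DESeq2 and limma-voom called 0 of the 10. Gdf11 in TE was at 1.96, 2.33, 2.25 and 2.40 FPKM. All of these were above the T libraries, TE1 by a narrow margin over T1, as for 1.49% of tested genes. In the CPM values, which carry the scaling of the test, TE1 at 11.35 lay below T1 at 11.97 and the groups overlapped. The difference on the log2 scale was 0.30 (SE 0.090) with an adjusted p of 0.693 in edgeR's quasi-likelihood test. T vs C and TE vs T share the T libraries. Fst differed by 0.27 on the log2 scale (SE 0.150, 95% interval -0.04 to 0.59, adjusted p 0.860), against 1.04 (SE 0.149) in E vs C. The difference between these values was tested as the interaction. In TE vs T Gdf10 differed by 0.08, and by -0.29 without TE4, and Mstn by 0.09, and by -0.05 without T4.

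Whether the exercise difference depended on the tumor was tested as an interaction. The interaction was called for 0 of the 10 genes, against 0% of all tested genes, in edgeR's quasi-likelihood test, and for 0 in DESeq2 and limma-voom. At an unadjusted p under 0.05, 4 of the 10 stood out (Fst, Fstl1, Gdf10 and Inhba), where 9.21% of all tested genes did. The interaction was -0.76 for Fst (SE 0.211, adjusted p 0.420) and -0.80 for Fstl1 (SE 0.217, adjusted p 0.420) on the log2 scale. It was -1.51 for Gdf10 (SE 0.533, adjusted p 0.438) and -1.03 for Inhba (SE 0.423, adjusted p 0.499). For Mstn it was 0.05, with an interval of -0.42 to 0.52, and -0.089 without T4.

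Averaged over tumor status, training was associated with a log2 difference of 0.65 in Fst (SE 0.105, adjusted p 0.0680), which missed the threshold in edgeR's quasi-likelihood test but passed it in DESeq2 and limma-voom. Without TE4 it was 0.71 (adjusted p 0.0144) and without T3 0.72 (adjusted p 0.00913), both past the threshold. The training effect was called in 0 of the 10 genes and in 0.00678% of all tested genes (1 gene), and at an unadjusted p under 0.05 in 3 of the 10 (Fst, Gdf10 and Gdf11) against 10.8% of all. The tumor effect averaged over training was called in 0 of the 10, against 1.36% of all tested genes, or 201 genes. At an unadjusted p under 0.05 it stood out in 3 of the 10, against 14.2% of all. Those were Fst at -0.36, Gdf10 at -0.90 and Gdf11 at -0.19, with adjusted p of 0.1097, 0.113 and 0.166. Without TE4 the value for Gdf10 was -1.09 (adjusted p 0.0465), and without T3 that for Fst was -0.42 (adjusted p 0.0454). DESeq2 called the tumor effect in 2 of the 10 genes, Fst and Gdf10, and limma-voom in 0.

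The balance of myostatin to its antagonist was described by the ratio of Mstn FPKM to Fst FPKM in each library. The ratio was 46.7, 41.9, 29.8 and 24.2 in C. In E it was 21.1, 16.3, 16.4 and 16.7, below every library of the other groups. In T it was 48.3, 45.6, 26.4 and 23.3, and in TE it was 26.9, 27.8, 32.0 and 37.5. Since Mstn differed by under 0.1 on the log2 scale in E vs C, TE vs E, T vs C and TE vs T, the low ratio in E went with the high Fst level there. Group means were 35.7 ± 10.4 in C, 17.6 ± 2.34 in E, 35.9 ± 12.9 in T and 31.1 ± 4.87 in TE (SD, n = 4 each). These are ratios of transcripts and say nothing of protein.

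**Figure D3:**
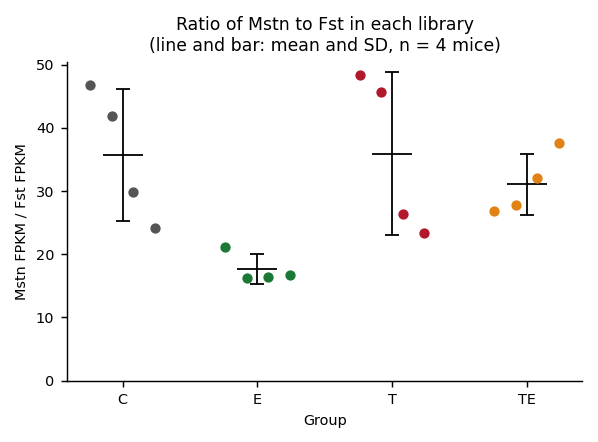
Ratio of Mstn FPKM to Fst FPKM in each of the 16 libraries, with the mean and SD of each group of 4. The E libraries lie between 16.3 and 21.1, and the lowest library of any other group is at 23.3.

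Most markers of connective tissue differed between E and C in the same direction as Fst, Gdf10 and Fstl1. The summed level of 5 tendon markers (Scx, Tnmd, Fmod, Comp and Thbs4) was 74.9 to 90.1 CPM in C and 146 to 243 CPM in E. It was 73.7 to 126 CPM in T and 77.4 to 111 CPM in TE, so that E stood above the rest without overlap. In E vs C, 4 of the 5 had a positive log2 fold change and 2, Tnmd and Fmod, were called. Scx went the other way, at -0.41 in E vs C and 0.31 in TE vs E on the log2 scale, and was not called in either. In TE vs E the same 2 genes, Tnmd and Fmod, were called lower. The summed level of 6 fibroblast and fibro-adipogenic progenitor markers was 493 to 695 CPM in C, 717 to 987 in E, 469 to 878 in T and 531 to 678 in TE, with 6 of 6 positive and 0 called in E vs C. The summed level of 4 pericyte and smooth muscle markers was 1064 to 1189 CPM in C, 1416 to 1569 in E, 1027 to 1399 in T and 1168 to 1373 in TE, so that E stood above the rest here too. They were positive in 4 of 4 in E vs C and 0 of 4 in TE vs E, with 0 called in either. No marker of these lists was at 0 in every library. Muscle fiber markers summed to 82391 to 97443 CPM in C and 80519 to 88212 in E, overlapping, with 0 of 6 positive and 0 called. In TE they summed to 90823 to 96739 CPM, above E without overlap, with 6 of 6 positive and 0 called in TE vs E. The part of the connective tissue and fiber markers in the Fst, Gdf10 and Fstl1 differences was not tested.

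Within groups, the correlation with the tendon markers was near 0 for Fst and higher for Gdf10. After group means were subtracted, Pearson's r with the summed tendon markers over the 16 libraries was -0.08 for Fst, 0.65 for Gdf10 and 0.25 for Fstl1. With the summed fibroblast markers it was 0.28 for Fst, 0.53 for Gdf10 and 0.87 for Fstl1. These are descriptions of 16 libraries that share muscle, depth and scaling.

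**Figure D4:**
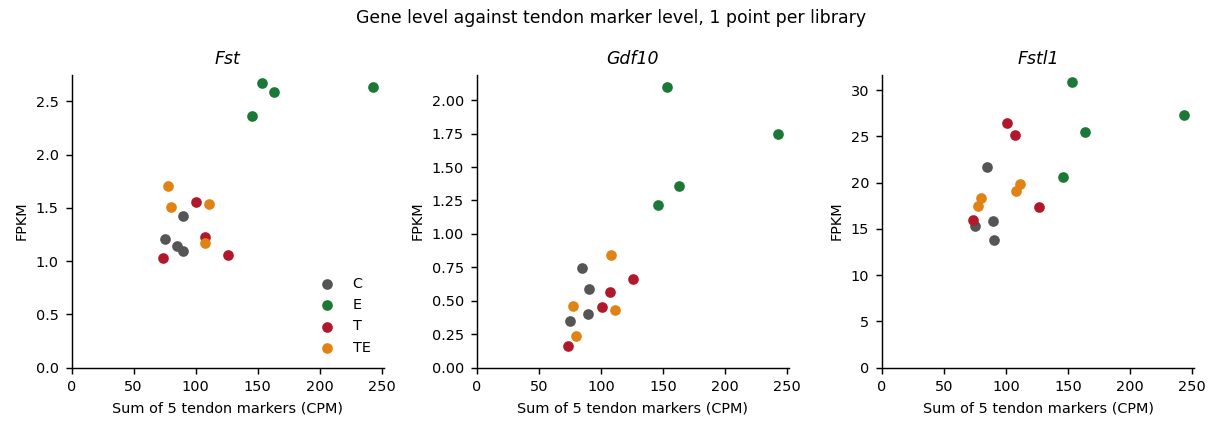
FPKM of Fst, Gdf10 and Fstl1 in each library (vertical axis) against the summed CPM of 5 tendon markers (horizontal axis), with points coloured by group. The 4 E libraries lie apart at 146 to 243 CPM of tendon markers, and the C, T and TE libraries lie at or below 126.

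The genes with the most similar pattern over the 16 libraries differed from member to member. For Fst they were Col5a3, a fibrillar collagen chain (r = 0.88), the tendon membrane protein gene Tnmd (0.87) and the volume-regulated channel subunit Lrrc8d (0.87). After subtraction of group means these fell to 0.48, 0.33 and 0.63, so part of the likeness lay in differences between group means. For Gdf10 they were Cilp2 (0.92), and the small leucine-rich proteoglycan genes Kera (0.91) and Fmod (0.89), at 0.86, 0.76 and 0.71 after subtraction. For Fstl1 they were fibronectin, Fn1 (0.93), Adgra2 (0.92) and Cald1 (0.91), at 0.88, 0.83 and 0.82 after subtraction. Fst and Gdf10 correlated with each other at 0.70, and at -0.09 after subtraction.

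For Mstn the leading genes were the DNA repair scaffold gene Xrcc1 (0.92), the muscle protein gene Smpx (0.80) and Ak6 (0.80), and these stood at 0.94, 0.84 and 0.89 after subtraction. The adult myosin heavy chains, which mark fiber types, were set beside it. Mstn correlated at 0.40 with Myh4 of fast 2B fibers, at -0.35 with Myh1, at -0.41 with Myh2 and at -0.70 with Myh7 of slow fibers, where Spearman's rho was -0.57. T4 had both the lowest Mstn, 28.4 FPKM, and the highest Myh7, 77.1 FPKM. It also had the highest level of Myh3, a marker of regenerating cells, at 11.6 FPKM. The summed satellite and regenerating cell markers were highest in T4 as well, at 174 CPM. Without T4 the 4 correlations were 0.50, 0.03, -0.11 and -0.52. The fiber make-up of the pieces sampled was not measured, and its part and that of regenerating cells in the spread of Mstn were not tested.

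The receptors' nearest genes were Mff (0.88, and 0.65 on log2 FPKM), Stk25 (0.85, and 0.79 after subtraction) and Ccdc9b (0.83) for Acvr1b, and Gse1 (0.83), Hnrnpu (0.79) and Zfp354a (0.78) for Acvr2a. For Acvr2b they were Tcf7l2 (0.83), Zfp68 (0.80) and the myogenic transcription factor gene Mef2d (0.79). For Fstl3 they were the iron exporter gene Slc40a1 (0.87), Cnr1 (0.83) and Fam221a (0.79). Inhba was closest to Epb41l1 (0.86), Stc1 (0.84) and Mpzl1 (0.83), and Gdf11 to Amd1, Med7 and Mterf1a (0.79, 0.78 and 0.78). After subtraction the last 3 stood at 0.67, 0.56 and 0.63, and Spearman's rho of Gdf11 and Amd1 was 0.45.

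Other genes of the pathway were read from 6 lists holding 98 genes, of which 78 were tested. In E vs C 0 were called, while 14 were higher and 3 lower at an unadjusted p under 0.05, a level that 14.2% of all tested genes reached in either direction. In TE vs E 0 were called, with 3 higher and 13 lower at that level, against 9.23% of all tested genes. In T vs C 1 was called, against 0.678% of all tested genes, with 14 higher and 5 lower at the unadjusted level, against 14.2% of all. In TE vs T 0 were called, with 4 higher and 4 lower, against 5.88% of all. Rgma, a co-receptor of the bone morphogenetic protein branch, fell by 0.43 on the log2 scale in T vs C (SE 0.091, adjusted p 0.0385), from 13.2 ± 0.382 FPKM in C to 9.604 ± 0.921 in T. It also had a log2 fold change of -0.39 in E vs C (SE 0.090, adjusted p 0.101), with E at 9.37 to 11.8 FPKM below C at 12.7 to 13.6, and of -0.07 in TE vs E and -0.03 in TE vs T. Cdkn1a, the cell cycle inhibitor p21, was higher in the tumor effect averaged over training, by 1.01 (SE 0.223, adjusted p 0.0295). It was the 1 of 12 listed targets of Smad signaling, and the 1 of the 78 pathway genes tested, that was called there, against 1.36% of all tested genes. Cdkn1a ranged from 4.93 to 7.80 FPKM in C, 7.93 to 11.9 in E, 7.49 to 29.9 in T and 10.9 to 19.4 in TE, so that T was uneven and overlapped C.

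Propeptide processing and latency genes cut or hold the precursors of these ligands. In E vs C 9 of the 10 genes of this list had a positive log2 fold change, 5 of them at an unadjusted p under 0.05 against 14.2% of all tested genes, and 0 were called. In TE vs E, which shares the E libraries, 9 of 10 had a negative one, 5 of them at that level against 9.23% of all, and 0 were called. Most connective tissue markers moved the same way in both comparisons, and their part in these differences was not tested. In T vs C the 2 genes of the list with the smallest p were Furin, the convertase that cleaves the myostatin precursor, at 0.26 on the log2 scale (adjusted p 0.211), and Tll1, a tolloid protease, at 0.87 (adjusted p 0.290).

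Of the 14 other ligands tested, 0 were called in any of the 4 comparisons of 2 groups. Inhbb, the subunit of activin B, was at 0.241 ± 0.0952 FPKM in C and 0.861 ± 0.767 in T, where it ranged from 0.192 to 1.96 and overlapped C (0.0989 to 0.304). Its log2 fold change in T vs C was 1.86 (SE 0.476, adjusted p 0.0823). Bmp7 had -1.48 (SE 0.462, adjusted p 0.153). Of the 13 other secreted antagonists 0 were called, and Lefty1 and decorin, Dcn, an abundant matrix proteoglycan that can bind myostatin, were at -1.01 and -0.23 in T vs C (adjusted p 0.337 and 0.481). In E vs C the log2 fold change of Dcn was 0.44 (SE 0.135, adjusted p 0.181), and in TE vs E it was -0.44 (adjusted p 0.257). Its E libraries, at 314 to 391 FPKM, lay above C at 215 to 291 without overlap, as for 6.28% of tested genes. Most connective tissue markers were higher in E than in C as well, and their part in the Dcn difference was not tested. Of the 14 Smads and regulators 0 were called, with Smad4 at 0.19 and the ubiquitin ligase gene Smurf2 at 0.19 in T vs C (adjusted p 0.223 and 0.250).

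**Figure D5:**
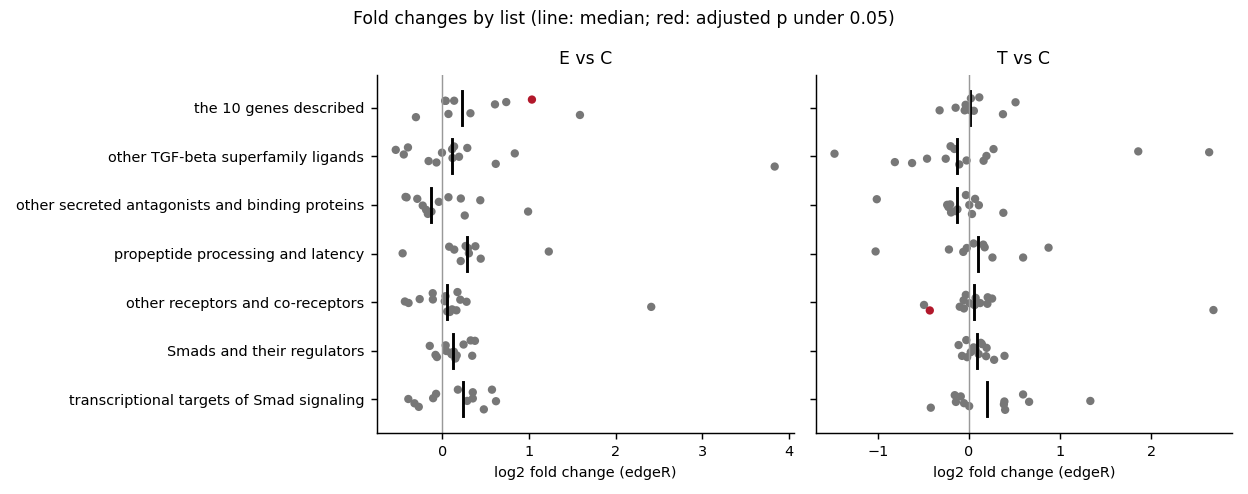
Log2 fold changes in E vs C and T vs C (horizontal axis, 1 panel each, on separate scales) of the 10 genes of the axis and of the tested genes of the 6 pathway lists, 1 point per gene, with the median of each list as a line and red for an adjusted p under 0.05. In E vs C 9 of the 10 propeptide processing genes lie to the right of 0 and Fst is the red point, and in T vs C the red point is Rgma.

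Some exons overlap those of a gene on the other strand. Whether counting used strand was not given in the sources used here, so reads of such pairs cannot be told apart. Gdf11 shares 10.6% of its exonic bases with Sarnp, which was at 12.8 CPM and differed by 0.08 between T and C on the log2 scale (adjusted p 0.856). Acvr2a shares 30.5% with Orc4, at 22.1 CPM and -0.05 in T vs C. Fstl3 shares 47.1% with Prss57, which was at 0.0545 CPM. Fst shares 2.29% and 2.44% with 2 long non-coding RNA genes, and no such overlap was found for Mstn or Fstl1 in the annotation used.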

How the data were processed

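Polyadenylated RNA of 16 gastrocnemius samples, 4 mice per group, was sequenced, and the labels give 1 batch for all. The authors deposited raw counts per gene and FPKM values per gene. Per the submitters' processing notes, reads were trimmed with fastp 0.20.1, aligned to GRCm39 with HISAT2 2.1.0 and counted with HTSeq 0.11.2. The strand setting and the annotation release were not given in the sources used here. Deposited FPKM are scaled by library and gene length and were used for levels, while the counts were used for tests.

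Counts of all 35415 genes were fitted with edgeR 4.0.16 (R 4.3.3): filterByExpr, TMM scaling, 1 coefficient per group and the quasi-likelihood F test, two-sided, over 14749 genes, with Benjamini-Hochberg adjustment within each contrast. A call is an adjusted p under 0.05. Intervals at 95% and standard errors came from that fit. CPM values used the TMM factors (0.947 to 1.05). Floors were set by 3 counts, about 0.0797 to 0.0842 CPM, and cover counting error only. The scripts were tested on simulated data. DESeq2 1.42.0, limma-voom (limma 3.58.1), other scalings and leave-one-out fits were tried as alternatives. Likeness was Pearson's r of log2 CPM (prior count 2). Promoter windows were read from the GRCm39 genome.

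The genes, the 6 pathway lists and the 13 marker lists were chosen with earlier results of these data known. Named beyond the 10 genes are pathway genes with an adjusted p under 0.05 in any contrast or, for a list with none, the 2 with the smallest p in T vs C, the 3 genes most like each of the 10, and adult myosins. A planned comparison of protein sequences was not run. The highest summed marker levels of further lists follow, in the order C, E, T and TE. They were 103, 93.1, 174 and 104 CPM for satellite cells, 589, 625, 608 and 551 for endothelium and 21.0, 69.4, 50.5 and 33.2 for adipocytes. Macrophages reached 34.8, 35.2, 48.0 and 35.7 CPM, erythroid cells 326, 348, 524 and 784 and Schwann cells 655, 568, 415 and 287.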

Additional observations from a re-analysis of the deposited data

Results flagged for a closer look

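In 3 of the 40 sets of 4 libraries (10 genes in 4 groups), 1 library stood farther from the rest than Dixon's limit for 4 values (0.829 of the range), where chance flags about 1 in 20. Mstn in E1 was at 49.9 FPKM, with the other E libraries at 43.0 to 43.8. Inhba in TE2 was at 0.103 FPKM, with the others of TE at 0.135 to 0.141. Acvr2b in E2 was at 1.83 FPKM, with the others of E at 3.39 to 3.68, and E2 had the highest summed tendon markers (243 CPM, against 146 to 163), whose part was not tested.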

How the results depend on the processing

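Fst in E vs C was called in 20 of 24 fits, at log2 fold changes of 1.00 to 1.12 and adjusted p of 2.23e-07 to 0.0920. Fst in TE vs E was called in 9 of 24 (adjusted p 0.000862 to 0.172) and Gdf10 in 3 of 24 in E vs C and 6 of 24 in TE vs E. The number of the 10 genes called moved as follows, and the cause was not tested. With DESeq2 it was 3 in E vs C, 1 in T vs C, 2 in TE vs E, 2 for the tumor effect and 1 for the training effect. With limma-voom it was 3, 0, 2, 0 and 1. Without the filter on low counts it was 2 in TE vs E and 1 for training, and with a fit of the compared groups alone it was 2 in E vs C and 2 in TE vs E. Requiring also a fold above 2 or below 0.5 left 0 in TE vs E. An unadjusted p under 0.05 gave 5 in E vs C, 2 in T vs C, 4 in TE vs E, 1 in TE vs T, 3 for tumor, 3 for training and 4 for the interaction. With single libraries left out the counts ranged from 0 to 1 in E vs C, 0 to 2 in TE vs E, 0 to 1 for tumor and 0 to 1 for training. Correlations of same-numbered libraries' deviations ran from -0.241 to 0.214 and were not all over 0.1, so the numbers were not taken to pair mice. With the replicate number as a block 1 gene was called in E vs C and 0 in TE vs E, where Fst kept -0.74 at an adjusted p of 0.0838. Values near 0 changed sign in T vs C: Mstn was -0.019 and Fst -0.0028 with library totals alone, Mstn was -0.00043 with the compared groups alone, and Fst was -0.068 and Acvr1b 0.0079 with limma-voom. Leaving out single libraries also turned signs, with ranges in T vs C of -0.11 to 0.15 for Mstn, -0.11 to 0.10 for Fst, -0.0059 to 0.17 for Acvr2a, -0.14 to 0.081 for Acvr2b, -0.12 to 0.059 for Acvr1b and -0.38 to 0.13 for Gdf10. In TE vs E they were -0.074 to 0.033 for Acvr2a and -0.084 to 0.0043 for Gdf11, and in E vs C -0.048 to 0.17 for Mstn. In TE vs T they were -0.050 to 0.21 for Mstn, -0.019 to 0.13 for Fstl3, -0.054 to 0.053 for Acvr2a and -0.29 to 0.31 for Gdf10, and for the interaction -0.089 to 0.17 for Mstn. Over all tested genes, calls in E vs C numbered 13, against 252 with DESeq2, 183 with the compared groups alone, 141 with limma-voom, 45 without the filter, 25 with the block, 21 with DESeq2 size factors and 0 to 127 with single libraries left out. In T vs C they numbered 100, against 432 with DESeq2, 174 without the filter, 62 with library totals, 30 with the compared groups alone and 16 to 255 with single libraries left out. In TE vs E they numbered 34, against 180, 96 with the compared groups alone, 69 without the filter and 61 with limma-voom. DESeq2 also gave 7 in TE vs T, 479 for tumor, 90 for training and 21 for the interaction, where edgeR gave 0, 201, 1 and 0, and training had 14 calls with limma-voom and 17 without the filter, which gave 3 in TE vs T. Inhba and Gdf10 had 95% intervals over 1 wide on the log2 scale in E vs C, and the cause was not tested.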
